A study of Mus musculus with 3 samples.

Results

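The 10 genes described here are Nfe2l2, which encodes the transcription factor NRF2, its inhibitor Keap1, and 8 genes known as NRF2 targets: Nqo1, Gclc, Gclm, Srxn1, Txnrd1, Slc7a11, Prdx1 and Sqstm1. They were chosen by symbol, as a known pathway, from the 55536 annotated genes of the tables, and all 10 were found. RNA came from the cytosolic fraction of bone-marrow-derived macrophages (BMDM) of C57BL/6J mice, which are primary macrophages grown from marrow cells. The cells had been treated for 30 min with Lipid A at 100 ng/ml, the lipid anchor of bacterial lipopolysaccharide and an agonist of Toll-like receptor 4. Total RNA was sequenced after ribosomal RNA removal, in 1 group of 3 libraries called replicates 1, 2 and 3. No genetic change is named in the labels, and the age and sex of the mice are not given. The labels call the libraries biological replicates but give them 1 donor record, so the spread between them may be partly technical. Untreated cells and other fractions were not analysed here, so every value is a level at 1 time point.

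The gene tables held 23403552, 50435201 and 35785896 expected counts in replicates 1, 2 and 3. All 10 macrophage markers examined, among them Csf1r, Adgre1 and Lyz2, lay at 10 TPM or more (TPM, a length-corrected share of the library's transcripts scaled to the same total in each library). Markers of other cells ranged from 0 to high levels. The 8 fibroblast and stromal markers summed to 26.1 TPM in replicate 1, 0.05 TPM in replicate 2 and 0.17 TPM in replicate 3. The collagen gene Col1a1 had 2375, 1 and 14 counts, and Col3a1 had 1300, 0 and 0. Neutrophil markers summed to 13.0, 47.9 and 33.3 TPM. Among them S100a9 had 92, 545 and 358 counts and Ngp had 50, 229 and 207. The neutrophil surface gene Ly6g had 0, 0 and 1. The 6 T and B cell markers summed to at most 0.08 TPM, and the erythroid haemoglobin gene Hbb-bs had 0 counts in each library. In the same erythroid and megakaryocyte list, the platelet factor gene Pf4 was at 146, 273 and 205 TPM (mean 208 ± 63.4), while the megakaryocyte integrin gene Itga2b was at 0.117 ± 0.0850 TPM. A count of 0 allows up to 0.128, 0.0595 and 0.0838 CPM (counts scaled to a common library total, with no length correction) in replicates 1, 2 and 3, for counting error only. The part of these other cells' RNA in the results was not tested.

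NRF2 is the main transcription factor of the antioxidant response. In unstressed cells KEAP1 binds it and presents it to a cullin-3 ubiquitin ligase, so that it is degraded soon after it is made; oxidants and electrophiles modify cysteines of KEAP1, and NRF2 then accumulates, pairs with a small MAF protein and binds antioxidant response elements. Its targets make glutathione, reduce thioredoxin and peroxiredoxins, detoxify quinones and supply NADPH, and in macrophages the pathway is known for restraining inflammatory gene expression. Because NRF2 is controlled largely through the stability of the protein, the level of its messenger RNA (mRNA) is not a measure of its activity.

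The antioxidant response element has a core written TGACNNNGC, where N is any base. This core was searched on both strands of the RefSeq promoter windows of GRCm38.p6, the assembly that mm10 names, which run from 250 bases before to 50 bases after an annotated start. Windows were matched for 9 of the 10 genes, all but Gclc. The 9 genes have 11 windows, because Txnrd1 has 3 starts. The core was present in 5 of the 9 genes, Nfe2l2, Prdx1, Gclm, Txnrd1 and Srxn1, and in none of the windows of Keap1, Nqo1, Slc7a11 and Sqstm1. Over all windows, 12.4% of 32851 held the core, as did 14.0% of 27025 genes. The absence of these letters says nothing about elements farther from the start. The 5 matches are printed to show which letters the genes have in common, 5′ to 3′ on the strand that reads TGACNNNGC, with the core in capitals and 10 flanking bases to either side:
Nfe2l2, chr2:75704885-75704913, same strand as the gene: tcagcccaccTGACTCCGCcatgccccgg
Prdx1, chr4:116685456-116685484, opposite strand: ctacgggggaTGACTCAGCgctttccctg
Gclm, chr3:122245413-122245441, opposite strand: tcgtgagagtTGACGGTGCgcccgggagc
Txnrd1, chr10:82859104-82859132, opposite strand: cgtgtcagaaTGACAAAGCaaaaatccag
Srxn1, chr2:152105542-152105570, opposite strand: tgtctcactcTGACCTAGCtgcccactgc

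Of these, 4 lie upstream of the annotated start and the Srxn1 match lies downstream of it. The core of Prdx1 also contains TGACTCA, the site of AP-1 factors, so the letters there belong to both motifs. The 5 windows that hold the core are rich in G and C, from 60.7% in Prdx1 to 79.7% in Gclm. The median over all windows was 52.7%. Of the windows without the core, that of Sqstm1 was at 63.3%, and the others lay between 44.7% in Slc7a11 and 53.7% in Nqo1. A match is a description of the sequence and no binding was measured.

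The 10 mRNAs covered a wide range of levels. Prdx1 was at 251 ± 87.3 TPM (mean ± SD, n = 3 here and for all later means), and Nqo1 at 0.333 ± 0.155 TPM. Among 22015 nuclear protein-coding genes ranked by mean TPM, Prdx1 was number 138, Sqstm1 168 and Nfe2l2 341. At the other end, Gclc was number 6938, Slc7a11 9404 and Nqo1 10512. A mean of 1 TPM or more was reached by 8 of the 10 genes, against 42.7% of nuclear protein-coding genes. A mean of 10 TPM or more was reached by 6 of 10 against 18.0%, and 100 TPM or more by 3 of 10 against 1.91%. The median of log2(TPM + 1) over the 10 genes was 4.01 ± 0.31, beside 2.43 ± 0.27 over the 13237 genes whose mean count reached 10.

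**Figure D1:**
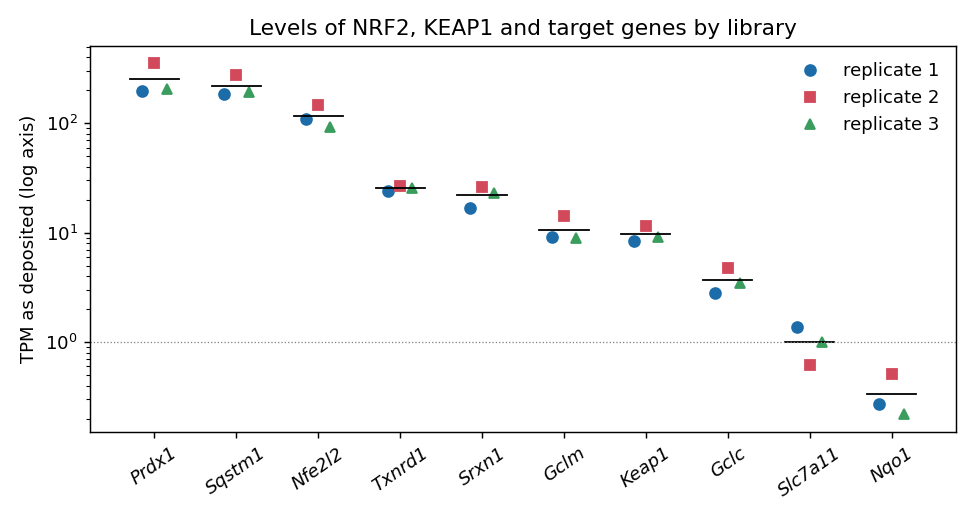
Level of each of the 10 genes in TPM (log axis), with 1 point for each of the 3 libraries and a bar for the mean, the genes ordered by mean TPM. Prdx1, Sqstm1 and Nfe2l2 lie above 90 TPM in every library, and Nqo1 lies between 0.22 and 0.51 TPM.

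TPM divides counts by transcript length and so allows genes to be compared, but it also depends on what else is in the library. Nuclear protein-coding genes held 22.3%, 34.4% and 24.3% of all TPM in replicates 1, 2 and 3. Replicate 2 had the highest TPM in 9 of the 10 genes, all but Slc7a11. Libraries are therefore compared below on CPM scaled by TMM (trimmed mean of M values) factors, which ask how a gene stands against most other genes of its library.

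In the order of mean TPM, 7 of the 9 neighbouring pairs kept their order in every library by a mean difference larger than its SD. Txnrd1 stood above Srxn1 by 0.23 ± 0.25 on log2(TPM + 1), and Gclm above Keap1 by 0.12 ± 0.14, the latter in 2 of 3 libraries. These 2 pairs did not differ beyond the spread between libraries. Prdx1 exceeded Sqstm1 by 0.18 ± 0.15 in all 3 libraries. The largest step, 2.11 ± 0.30, separated Nfe2l2 from Txnrd1. With signs exchanged exactly in every way over the libraries (two-sided permutation test), no p below 0.25 is possible. That was the p of each pair except Gclm and Keap1, where it was 0.5.

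Nfe2l2 (ENSMUSG00000015839.6; mm10 chromosome 2, 75675513 to 75704641, minus strand) encodes NRF2 itself. Its mRNA was at 108, 146 and 92.7 TPM in replicates 1, 2 and 3, from 10917, 24069 and 12925 counts. Keap1 (ENSMUSG00000003308.15; chromosome 9, 21229730 to 21239361, minus strand), the sensor that holds NRF2 in check, was at 8.32, 11.5 and 9.05 TPM. The mRNA of the factor thus exceeded that of its inhibitor in each library, by 13.0-fold, 12.7-fold and 10.2-fold, a mean of 12.0 ± 1.52. Nfe2l2 also exceeded Bach1, which encodes the repressor that competes for the same DNA elements, by 4.69 ± 0.430-fold. Its ratio to Nfe2l1, the gene of the related factor NRF1, was 4.46, 3.64 and 3.05. That ratio depends on the estimator and was 3.34, 2.47 and 2.45 in the second transcript table. These ratios are of mRNA and carry no information on protein amounts.

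Scaled by TMM, Nfe2l2 was at 485, 443 and 375 CPM. Replicate 1 was highest and replicate 3 lowest, 1.29-fold apart. On library totals in place of TMM the values were 467, 477 and 361 CPM, so that the order of replicates 1 and 2 turned and replicate 3 was lowest on both scales. Keap1 was at 50.6, 46.9 and 50.01 CPM and spanned 1.08-fold, the libraries lying close together and in another order on library totals (48.7, 50.6 and 48.1 CPM).

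Glutathione synthesis begins with cystine, which enters through a transporter whose light chain is encoded by Slc7a11 (ENSMUSG00000027737.10; chromosome 3, 49892526 to 50443614, minus strand). Slc7a11 was at 1.37, 0.62 and 1.00 TPM, and at 14.6, 6.05 and 8.97 CPM after TMM scaling. Replicate 1 was highest and replicate 2 lowest, 2.41-fold apart, the widest range of the 10 genes. On library totals the values were 14.0 CPM (95% exact Poisson interval 12.5 to 15.6), 6.52 CPM (5.84 to 7.27) and 8.63 CPM (7.70 to 9.65), and these 3 intervals do not overlap. Between replicates 2 and 3 alone, without replicate 1, the range was 1.49-fold (adjusted p = 1.7e-06, chi-square test described below). Between replicates 1 and 3 it was 1.62-fold. These ranges are of the whole gene. After TMM scaling, its coding transcript Slc7a11-201 was at 5.42 and 5.92 CPM in replicates 2 and 3. Its transcripts annotated with a retained intron summed to 0.632 and 3.05 CPM there, and the classes were not tested apart. The stromal transcripts described above were also highest in replicate 1, at 26.1 TPM against 0.05 and 0.17 TPM. Their part in the differences of Slc7a11 was not tested. The heavy chain of the same transporter, Slc3a2, which also serves other amino acid transporters, was at 131 ± 21.2 TPM. Its ratio to Slc7a11 was 78.1, 223 and 148 in replicates 1, 2 and 3.

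The first enzyme of the pathway, glutamate-cysteine ligase, joins glutamate to cysteine and has a catalytic subunit, Gclc, and a modifier subunit, Gclm, that raises its efficiency. Gclc (ENSMUSG00000032350.9; chromosome 9, 77754535 to 77794485, plus strand) was at 2.80, 4.72 and 3.48 TPM. Gclm (ENSMUSG00000028124.15; chromosome 3, 122245557 to 122270732, plus strand) was at 9.04, 14.1 and 8.92 TPM. Over all transcripts of each gene, the TPM of Gclm exceeded that of Gclc in each library, by 3.23-fold, 2.98-fold and 2.56-fold. The Gclm value includes Gclm-203, a model of incomplete annotation that held 29.9%, 35.8% and 18.3% of it, and a retained-intron model. A ratio of complete coding transcripts was not taken. Both genes were steady between libraries after TMM scaling. Gclm was at 27.3, 27.1 and 28.5 CPM, a range of 1.05-fold whose order changes on library totals. Gclc was at 18.2, 20.7 and 20.6 CPM, a range of 1.14-fold.

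Thioredoxin reductase 1, encoded by Txnrd1 (ENSMUSG00000020250.10; chromosome 10, 82833951 to 82897712, plus strand), uses NADPH to keep thioredoxin reduced. Txnrd1 was at 24.2, 26.8 and 25.8 TPM and, after TMM scaling, at 141, 103 and 132 CPM. Replicate 2 was lowest on the second scale, 1.37-fold below replicate 1. Thioredoxin itself, Txn1, was at 1.96, 2.38 and 1.85 times the TPM of Txnrd1.

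Prdx1 (ENSMUSG00000028691.12; chromosome 4, 116685544 to 116700822, plus strand) encodes peroxiredoxin 1, a peroxidase that thioredoxin recycles. It was at 195, 352 and 207 TPM and at 567, 629 and 530.4 CPM, with replicate 2 highest on both scales and a range of 1.19-fold on CPM. Srxn1 (ENSMUSG00000032802.8; chromosome 2, 152105516 to 152111376, plus strand) encodes sulfiredoxin, which repairs peroxiredoxins that have been overoxidised. It was at 16.7, 26.2 and 23.1 TPM and at 87.4, 89.9 and 108 CPM, with replicate 3 highest and a range of 1.24-fold on CPM. Prdx1 mRNA exceeded that of Srxn1 by 11.7-fold, 13.5-fold and 8.95-fold, the smallest ratio being that of replicate 3.

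Sqstm1 (ENSMUSG00000015837.15; chromosome 11, 50199366 to 50210827, minus strand) encodes p62, an autophagy receptor that can bind KEAP1 and so free NRF2. It was at 183, 274 and 193 TPM and at 652, 601 and 623 CPM, a range of 1.08-fold. On library totals in place of TMM the values were 628, 649 and 599.9 CPM, which puts replicate 2 above replicate 1, so no library order is given for it. Its ratio to Keap1 varied little between libraries, at 22.0, 23.8 and 21.3.

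Nqo1 (ENSMUSG00000003849.8; chromosome 8, 107388225 to 107403206, minus strand) encodes a quinone reductase often used as a readout of NRF2. It was the lowest of the 10, at 0.27, 0.51 and 0.22 TPM from 17, 50 and 19 counts. On library totals this was 0.726 CPM (95% exact Poisson interval 0.423 to 1.16), 0.991 CPM (0.736 to 1.31) and 0.531 CPM (0.320 to 0.829). The 3 intervals overlap, but each lies above the level that a count of 0 allows, so the transcript was detected in every library. Hmox1, another classical target that encodes the haem-degrading enzyme haem oxygenase 1, exceeded Nqo1 by 308-fold, 268-fold and 553-fold in TPM. Prdx1 exceeded it by 723-fold, 690.1-fold and 941-fold.

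Differences between libraries were tested gene by gene by comparing the counts with Poisson sampling in a chi-square test. The p-values were adjusted by the Benjamini-Hochberg method over the 13237 genes whose mean count reached 10. The test asks whether libraries differ by more than counting error and compares these libraries, not conditions. Of the 10 genes, 6 differed at an adjusted p under 0.05, beside 66.8% of all genes tested. The share was 86.0% among genes whose mean count reached 1000. With all libraries used, the members' count is thus near the background. Without replicate 2 it was 6, beside 33.1% of all genes tested. The 6 were Nfe2l2 (adjusted p = 1.1e-89), Prdx1 (6.8e-80), Txnrd1 (5.4e-56), Slc7a11 (8.4e-29), Srxn1 (3e-19) and Sqstm1 (1.2e-14). The 4 that did not pass were Keap1 (0.059), Gclc (0.093), Nqo1 (0.2) and Gclm (0.52). For Nqo1 the counts are low, and its 1.67-fold range did not pass. The smallest difference that the test could detect at such counts was not computed.

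The call for Srxn1 rests on replicate 3. Without it, the range was 1.03-fold and the adjusted p 0.43, and 5 members differed, beside 51.2% of all genes tested. The calls for Keap1 and Gclc lie near the threshold and depend on the scaling: DESeq2 size factors gave Keap1 an adjusted p of 0.043, and library totals gave Gclc a 1.28-fold range at 0.00011.

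The differences that passed were mostly small. The highest library was under 1.5-fold above the lowest in 8 of the 10 genes, all but Slc7a11 and Nqo1, beside 73.2% of all genes tested. Replicate 1 was highest in 5 of the 10, replicate 2 in 3 and replicate 3 in 2. The shares over all genes tested were 29.8%, 39.0% and 31.3%. Replicate 1 was lowest in 2 of the 10, replicate 2 in 5 and replicate 3 in 3, against 31.0%, 37.6% and 31.4% of all genes tested. This tally depends on the scaling. On library totals, where the median of all genes shifts by -0.05, 0.11 and -0.05 on the log2 scale, replicate 1 was highest in 2 of the 10, replicate 2 in 7 and replicate 3 in 1, beside 19.9%, 58.8% and 21.3% of all genes. The coefficient of biological variation that edgeR estimated had a median of 13.1% over the 10 genes and 17.3% over all genes, and ran from 11.0% for Keap1 to 32.3% for Slc7a11 and 43.6% for Nqo1.

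**Figure D2:**
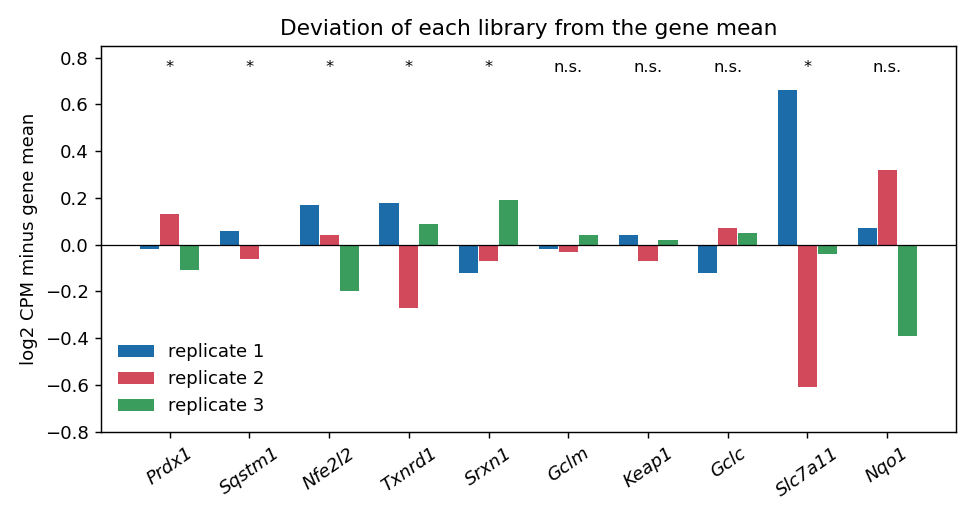
Deviation of each library from the gene's mean over 3 libraries, in log2 CPM after TMM scaling, for the 10 genes. Slc7a11 deviates by 0.66 in replicate 1 and by -0.61 in replicate 2, Nqo1 by 0.32 in replicate 2 and by -0.39 in replicate 3, and the other 8 genes stay within 0.27 of their means.

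Nfe2l2 deviated from its mean by 0.17, 0.04 and -0.20 in replicates 1, 2 and 3 on the log2 CPM scale. Slc7a11 was far higher in replicate 1 and far lower in replicate 2. Prdx1 was highest in replicate 2 and Srxn1 in replicate 3. Whether these patterns differ from that of Nfe2l2 was not tested.

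In the first of the deposited transcript tables, a protein-coding transcript led the mean share of each of the 10 genes, but for Slc7a11 this rests on replicate 2. Without that library, or in the second transcript table, a retained-intron transcript led Slc7a11 and 9 genes were led by a protein-coding one. Nqo1 (100% in each library), Gclc, Srxn1 and Nfe2l2 were nearly single-transcript genes. Gclc-201 held 97.8%, 100% and 98.8% of the gene's TPM, and Srxn1-201 held 97.9%, 96.5% and 96.3%. Nfe2l2-201 held 91.7%, 95.9% and 92.0%, and the remainder went to Nfe2l2-202, a processed transcript with no annotated reading frame. Keap1 was spread over 4 transcripts, led by Keap1-205 at 60.4%, 52.9% and 53.5% and Keap1-201 at 27.2%, 36.5% and 34.6%. All 4 carry the same annotated coding sequence of 1872 nucleotides, so the split lies in their untranslated ends.

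Gclm was divided between short and long transcripts. Gclm-206, of 1002 nucleotides, held 35.9%, 50.4% and 44.7% of the TPM, and Gclm-201, of 5589 nucleotides, held 16.2%, 13.1% and 21.3%. The long form nevertheless received more of the counts, 366, 741 and 653, because it is longer. Both share a coding sequence of 822 nucleotides. A further model, Gclm-203, whose annotation is incomplete, held 29.9%, 35.8% and 18.3% of the TPM. For Prdx1 the split depends on the estimator. Prdx1-204 held 57.8% on average in the first table and 39.3% in the second, where Prdx1-202 took 19.3% against 0.16%. Prdx1-205, whose annotation is incomplete, held 40.8% on average in the first table and 37.1% in the second.

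Txnrd1 has starts in 3 promoter windows, and the middle one, which holds the element printed above, had most of the output. Transcripts starting there held 80.02%, 94.2% and 76.2% of the gene's TPM. The upstream window had 2.51%, 0.61% and 1.94%, and the downstream one 10.9%, 3.92% and 14.1%. In the second transcript table the shares were 62.7%, 86.7% and 61.8% for the middle window, 8.96%, 2.21% and 5.59% upstream and 18.5%, 8.51% and 21.3% downstream. The middle window led in all 3 libraries in both tables, by the widest margin in replicate 2. Txnrd1-201, Txnrd1-208 and Txnrd1-206 share a coding sequence of 1497 nucleotides.

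Transcripts annotated with a retained intron held 12.7%, 2.50% and 13.1% of the TPM of Txnrd1 and 16.6%, 0% and 9.71% of that of Gclm. The Gclm shares rest on only 19.0, 0 and 15.7 counts, and in the second transcript table they were 16.3%, 0% and 1.17%. Slc7a11 and Sqstm1 are described further, a choice made after their values were seen. In Slc7a11 such transcripts held 59.8%, 29.9% and 64.6% of the gene's TPM in replicates 1, 2 and 3. Among 5916 nuclear protein-coding genes at 1 TPM or more with such a transcript annotated, the median share was 1.74%, 0.81% and 2.25%, and 7.15%, 7.29% and 7.94% of them exceeded 25%. Slc7a11, at a mean of 0.997 TPM, lies just below the filter of 1 TPM and so outside that set. It exceeded 25% in every library. Most of its share came from Slc7a11-204, an unspliced model of 2677 nucleotides, at 45.8%, 28.6% and 54.4%, while the coding transcript Slc7a11-201, of 9223 nucleotides, held 40.2%, 70.1% and 35.4%. The counts behind the retained-intron models were 97.6, 34.4 and 105, a minority of the gene's 328, 329 and 309. The coding transcript alone was at 10.2, 5.42 and 5.92 CPM, so that replicate 1 was highest without the retained-intron models as well. Replicates 2 and 3 lay close together in it, while the retained-intron models together were at 4.33, 0.632 and 3.05 CPM.

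Sqstm1 went the other way. Its retained-intron transcripts held 7.60%, 17.0% and 8.95% of the TPM, highest in replicate 2. Over 5467 genes with such transcripts detected, the share was highest in replicate 1 for 30.9%, in replicate 2 for 16.5% and in replicate 3 for 52.6%. Sqstm1-203, a model of 582 nucleotides, had 115, 1014 and 201 counts, or 5.11, 18.6 and 5.85 CPM. The leading coding transcript, Sqstm1-202, held 83.8%, 76.6% and 83.8%. In the second transcript table the retained-intron share of Sqstm1 was 18.6%, 21.03% and 17.4%, so the excess of replicate 2 was small there. The long nuclear RNA Malat1 was at 472, 302 and 788 TPM, lowest in replicate 2. The part of nuclear RNA in these shares was not tested.

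**Figure D3:**
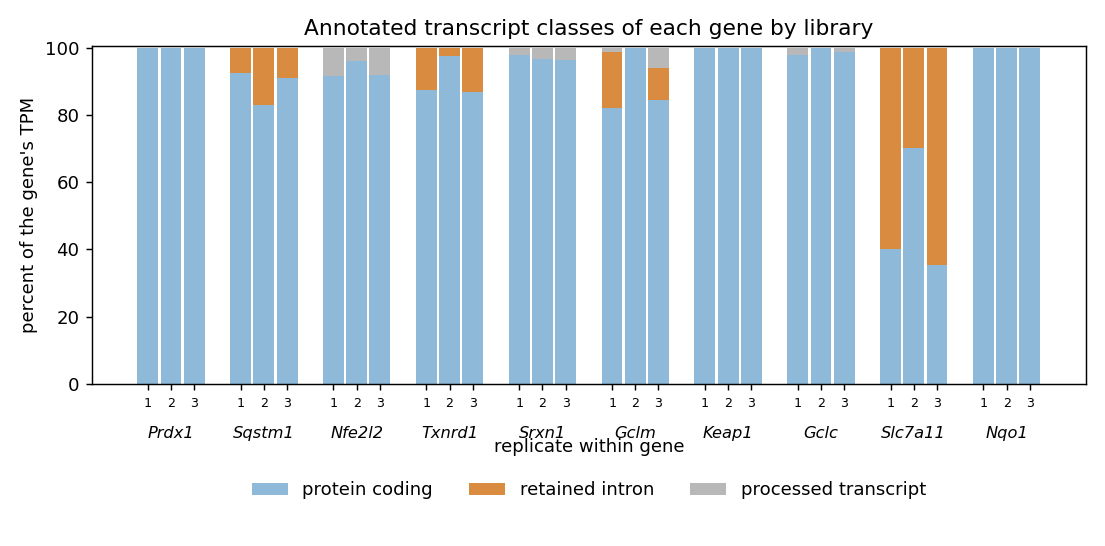
Percent of each gene's TPM by annotated transcript class, with 1 bar for each of the 3 libraries, from the first transcript table. Slc7a11 has retained-intron shares of 59.8%, 29.9% and 64.6%, and Nqo1 is protein-coding only in every library.

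The other genes of the pathway were described in 4 lists taken from textbook roles. Among 13 partners and regulators of NRF2, 10 reached a mean of 1 TPM and 7 a mean of 10 TPM. The highest were Rbx1, a subunit of the cullin-3 ligase, at 41.6 ± 17.97 TPM, Nfe2l1 at 31.6 ± 7.99 TPM and Bach1 at 24.5 ± 3.51 TPM. The lowest was Bach2, a relative of Bach1 known from lymphocytes, at 0.0967 ± 0.0306 TPM, and Nfe2 and Nfe2l3 were also below 1 TPM. All 13 were tested and 11 differed between libraries, beside 66.8% of all genes. Without replicate 2 the number was 5, beside 33.1%.

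Of 20 further NRF2 targets, 17 were at 1 TPM or more and 13 at 10 or more. Ftl1 and Fth1, whose products form the ferritin shell that stores iron, led at 8631 ± 1189 and 8219 ± 1754 TPM, followed by Hmox1 at 114 ± 27.6 TPM. The glutathione transferase gene Gsta3 was lowest at 0.127 ± 0.0416 TPM, and Me1 and Marco were also below 1 TPM. Of the 19 tested, 16 differed between libraries, beside 66.8% of all genes, and 9 without replicate 2, beside 33.1%. Hmox1 was at 231, 251 and 306 CPM, highest in replicate 3.

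Among 12 glutathione genes, 8 were at 1 TPM or more. The peroxidase genes Gpx1 and Gpx4 were at 517 ± 184 and 142 ± 50.5 TPM, followed by Slc3a2. Ggt1, which breaks down extracellular glutathione, had 0 counts in each library, and Ggt5, Chac1 and Slc6a9 were below 1 TPM. Of the 9 tested, 8 differed between libraries, beside 66.8% of all genes. Without replicate 1 the number was 4, beside 55.3%, and without replicate 2 it was 5, beside 33.1%. Of 14 genes for thioredoxins, peroxiredoxins and superoxide dismutases, 13 were at 1 TPM or more. The highest were the cytosolic superoxide dismutase gene Sod1 at 94.2 ± 37.8 TPM, Prdx5 at 67.7 ± 11.7 TPM and the sestrin gene Sesn1 at 57.4 ± 14.1 TPM. The lowest was the extracellular dismutase gene Sod3 at 0.0133 ± 0.0153 TPM. Of the 13 tested, 8 differed between libraries, beside 66.8% of all genes, and 4 without replicate 1, beside 55.3%. Prdx1, at 251 TPM, stood above each of the other peroxiredoxin genes, Prdx2 to Prdx6, in mean TPM.

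**Figure D4:**
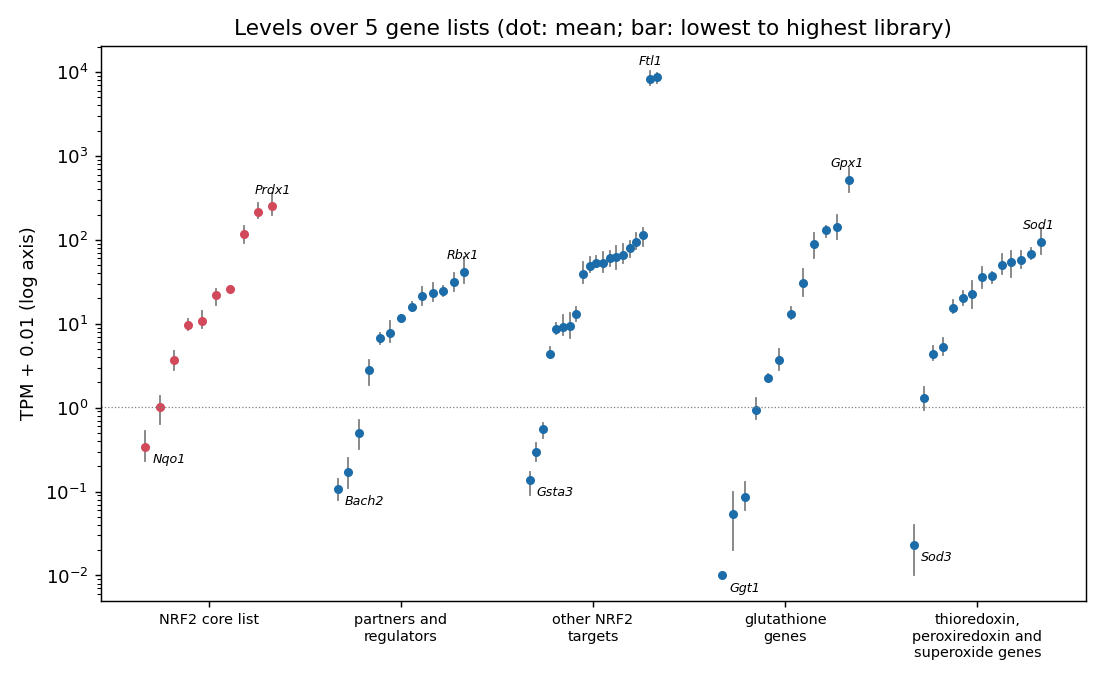
Mean TPM over 3 libraries (log axis) of the 10 genes and of the genes in the 4 pathway lists, with 1 point for each gene. The ferritin genes Ftl1 and Fth1, at 8631 and 8219 TPM, lie more than an order of magnitude above the next highest target, and the 10 genes span from Nqo1 to Prdx1.

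Some of the 10 overlap other annotated genes, and the strand used in counting is not given in the sources used here, so reads of overlapping genes cannot be told apart with certainty. The neighbour with the largest share was Gm37498, which lies within Slc7a11 on the same strand and had 25, 23 and 26 counts beside 328, 329 and 309 for Slc7a11. Others had few counts: the antisense gene Gm16754 at Keap1 had 2.06, 3.06 and 8.25, Mrnip on the opposite strand at Sqstm1 had 8.57, 43.3 and 22.3, and Gm17494 at Gclm had 27.7, 51.8 and 23.2. Eid3, which lies within Txnrd1 on the same strand, had 90, 47 and 174 counts beside 3183, 5605 and 4559 for Txnrd1, and Gm38560 on the opposite strand had 7, 23 and 9. The posterior SD of the members' counts, which the quantifier gives for the sharing of reads between genes, was at most 2.01 counts.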

How the data were processed

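RNA-seq libraries of the cytosolic fraction, 3 in 1 group, started from 1 µg of RNA, and their fragments measured 250 to 400 nt, per the labels. Each library has 1 gene table and 2 transcript tables, made by the authors on mm10 with GENCODE M21, per the deposited readme files. Which aligner and quantifiers made them is not given in the sources used here. In the tables the authors deposited, expected counts are raw estimates of reads, those mapping to several places being shared out. Deposited TPM values correct for effective length and add to 1 total per library, so abundant short RNAs lower the TPM of mRNAs. The share of a gene's TPM held by each transcript is deposited as a percent. Gene tables held 81881 rows, of which 55536 were annotated genes. The other 26345 rows (tRNA, spike-in and phiX rows) held 0.462%, 0.109% and 0.097% of counts in replicates 1, 2 and 3 and were left out.

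Depth was 23403552, 50435201 and 35785896 counts, so that replicate 2 has the smallest counting error. Intervals are 95% exact Poisson intervals, and the limit of a count of 0 is 3 counts. Both cover counting error alone: without molecular identifiers, reads are not independent molecules. Expected counts were rounded for the chi-square test (mean count of 10 or more, Benjamini-Hochberg threshold 0.05). It was tried on simulated Poisson counts only, the sampling model it assumes, so that trial does not cover other spread between libraries. TMM factors and dispersions came from edgeR 4.0.16 (R 4.3.3). Deviations used log2 CPM with a prior count of 0.5, and levels used log2(TPM + 1), which understates differences of low genes. DESeq2 1.42.0 gave alternative size factors. Other steps used Python 3.11.15, pandas 2.3.3, numpy 2.4.6, scipy 1.17.1 and matplotlib 3.10.9. Coding lengths came from the GENCODE M21 annotation (stop codon excluded) and promoters from RefSeq.

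Alternatives were DESeq2 size factors, library totals, unrounded counts, other filters and pseudocounts, the second transcript table, TPM scaled to nuclear protein-coding genes, the list mean, and leaving out each library. All 10 genes are named, with the 3 highest and the lowest of each pathway list, those under 1 TPM, and genes that overlap a member and had more than 1 count in each library. Genes named for a ratio or comparison (Txn1, Prdx2 to Prdx6) and Malat1 were chosen after their values were seen. The members and lists were chosen with earlier results of these data known.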

Additional observations from a re-analysis of the deposited data

How the results depend on the processing

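In 83 comparisons with an alternative setting, a member's between-library test kept its side of the threshold. Where the gene passed and the setting kept both its highest and its lowest library, the highest also stayed above the lowest. Settings that left out either library could not show that order. The exceptions were Keap1, which passed with DESeq2 size factors (adjusted p = 0.043) and among genes whose mean count reached 100 (0.014); Gclc, which passed with library totals (0.00011) and with no filter (0.04); Srxn1, which did not pass without replicate 3 (0.43); and Sqstm1, in which replicate 2, the lowest, passed above replicate 1, the highest, with library totals (1.08-fold). Library totals also put replicate 2 highest in Nfe2l2, Keap1 and Gclm. The cause of these changes was not tested. Between 5 and 7 members differed under the settings tried, beside 33.1% to 74.01% of all genes. Without replicates 1, 2 and 3 in turn, 6, 6 and 5 members differed, beside 55.3%, 33.1% and 51.2% of all genes. A mean of 10 TPM or more was reached by 4 members in the second transcript table and by 8 with TPM scaled to nuclear protein-coding genes, against 6. Nfe2l2 was then at 49.9 and 431 TPM, against 116. The share of all genes at 10 TPM or more was not taken under these settings. The median of log2(TPM + 1) was 2.88 in the second transcript table, 5.85 with TPM scaled to nuclear protein-coding genes and 4.62 over members at 1 TPM or more in each library, against 4.01; leaving out a library gave 3.85 to 4.15. With one library left out, the number differing was 5 to 10 of the partners and regulators, 9 to 14 of the further targets, 4 to 9 of the glutathione genes and 4 to 8 of the thioredoxin list. Over all genes the share was then 55.3%, 33.1% and 51.2% without replicates 1, 2 and 3. Pathway counts kept within 1.5 times under the other settings. Depth limits Nqo1, with 17 to 50 counts, most. No paired analysis was possible because there is 1 group.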

Other observations

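The pentose phosphate genes of the lists were all well above 10 TPM. Taldo1 was at 79.2 ± 16.6 TPM, Pgd at 60.03 ± 12.4, Tkt at 53.2 ± 16.5 and G6pdx at 39.1 ± 12.7 (mean ± SD over 3 libraries). Of these, Pgd and G6pdx encode the enzymes that make NADPH. The malic enzyme gene Me1, which also makes NADPH, was at 0.287 ± 0.0764 TPM. Among the further NRF2 targets, the glutathione transferase gene Gstm1 was at 95.3 ± 22.8 TPM and the catalase gene Cat at 65.3 ± 20.95 TPM. Others in that list were lower, with Cbr1 at 9.28, Ephx1 at 9.13, Abcc1 at 8.58 and Gsta3 at 0.127 TPM on average. Apart from Me1 and Gsta3, the genes above were not named by the rule given for the pathway lists. The next 3 genes of the pathway lists were chosen after their values were seen. Maff, which encodes a small MAF partner of NRF2, was at 37.7, 15.2 and 18.6 CPM in replicates 1, 2 and 3 (2.49-fold, chi-square test, adjusted p = 2e-86). Sod2, the mitochondrial superoxide dismutase gene, was at 170, 96.2 and 109 CPM (1.76-fold). Nfe2l3, which encodes a further relative of NRF2, was at 1.07, 0.313 and 0.61 CPM (3.41-fold, chi-square test, adjusted p = 0.00056), from only 24, 17 and 21 counts. Replicate 1 was highest in each, as it was for Slc7a11 and for 29.8% of all genes tested. In the 4 pathway lists, in the order given above, it was highest in 4 of 13, 5 of 19, 3 of 9 and 5 of 13 genes tested. It is also the library with 26.1 TPM of stromal markers, whose part in these values was not tested.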
